A study of Mus musculus with 18 samples.

Results

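Hepatocytes that had lost Smoothened (Smo) were compared with hepatocytes that had kept it, 48 h after partial hepatectomy (PH), in 3 of the 18 libraries of the series. These are all the libraries of Smo-floxed mice taken at 48 h: 1 Smo (+) PH library and 2 Smo (-) PH libraries, each from 1 mouse. All 3 mice were male Smo flox/flox animals (the Smo tm2Amc allele) on the C57Bl/6J strain, 3 months-old by their labels. The Smo (+) PH mouse received AAV8-TBG-Luc, a virus that carries luciferase, and the Smo (-) PH mice received AAV8-TBG-Cre, both through the tail vein. The TBG promoter is active in hepatocytes, so Cre acts there and the other cells of the liver keep Smo. At 7 days after the virus 70% of the liver was removed, and hepatocytes were isolated by collagenase perfusion 48 h later for RNA-seq of polyadenylated RNA. Floxed alleles, the AAV8 serotype, the TBG promoter and the surgery are common to both groups, while the cargo of the virus differs. Cre was given only with the deletion, so that an effect of Cre itself and of the loss of Smo cannot be told apart. Also used for reference are wild-type C57Bl/6J mice without virus, Young (3 months-old) and Old (24 months-old), with 3 libraries per age before PH and 3 per age at 48 h (Young PH and Old PH).

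Hedgehog ligands bind the receptor Patched and release Smo, which then lets Gli transcription factors switch on their targets. The pathway is nearly silent in the healthy adult liver and is known to be engaged during repair. After PH the remaining hepatocytes leave quiescence and divide, with DNA synthesis and mitosis running through the first days, while they go on making plasma proteins, bile acids and lipids. The question set by the design is what the loss of Smo does to these dividing hepatocytes.

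The 3 libraries held 18216017 (Smo (+) PH), 18766590 and 19151731 (Smo (-) PH) read pairs counted in genes. Levels below are CPM, counts scaled to a common library size after TMM scaling, TMM being an edgeR step that corrects for differences in RNA composition. Log2 levels were compared over 9237 genes with a mean of at least 5 CPM over the Smo-floxed libraries of both times. The Smo (-) PH mice differed from the Smo (+) PH mouse with a standard deviation of 0.349 and 0.38, and from each other with one of 0.287. Hepatocyte markers were high in every library, with Alb at 49920, 55940 and 56740 CPM and Hnf4a at 714, 623 and 690 CPM, in the order Smo (+) PH, Smo (-) PH replicate 1 and replicate 2 that is kept throughout. The 3 libraries at 0 h enter the fit, and 1 of them, the Smo (+) library at 0 h, stands apart: 22.5% of its gene counts came from the mitochondrial genome against 3.32% to 5.57% at 48 h. Every difference between the times rests on that library.

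The targeted gene came first. Smo (chr6:29735503-29761365, GRCm38, + strand, protein-coding) gave 220 counts (11 CPM) in the Smo (+) PH library. The Smo (-) PH libraries gave 30 counts (1.51 CPM) and 26 counts (1.20 CPM). Both deleted mice lay far below the control, at a log2 fold change of −3.02 (SE 0.455). In the fit of all genes this missed the threshold (adjusted p = 0.0539, edgeR), and it passed in 10 of 14 alternative fits. The adjusted p ran from 5.23e-12 to 0.165 over the 13 that keep the groups apart, and was 0.568 (log2 fold change −2.27) in the fit with 1 effect of the virus for both times. The counts cover the whole gene, so that reads from undeleted exons, from hepatocytes that kept the gene and from other liver cells cannot be told apart. Nothing else in these bulk libraries separates fewer cells of a type from less RNA per cell either.

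No gene of the Hedgehog pathway was called. The receptor and target Ptch1 stood at 24.6, 21.2 and 22.4 CPM (log2 fold change −0.17, SE 0.251), and the ligand Ihh at 10.2, 11.7 and 7.79 CPM (−0.06, SE 0.318), so that the Smo (-) PH mice lay on both sides of the control for Ihh. The target Bcl2, which blocks apoptosis, stood at 1.25, 1.86 and 1.94 CPM (0.60, SE 0.507), and Angpt2, a vascular growth factor, at 0.35, 1.06 and 0.60 CPM (1.22, SE 0.829). Tert, the catalytic part of telomerase, stood at 9.80, 10.1 and 11.4 CPM (0.13, SE 0.326). None of these genes passed the test (edgeR), and a miss of the threshold does not show that they were equal. Gli1 gave 2, 1 and 3 counts, Gli2 2, 0 and 1, Gli3 3, 3 and 4, and Hhip 0, 5 and 2, which is too few for any comparison. Of the 17 core pathway genes that could be tested, 8 were higher in both Smo (-) PH mice, 6 lower in both and 0 called, with a median log2 fold change of 0.03. Among 15 tested target genes, 4 were higher in both, 3 lower in both and 0 called, with a median of 0.01.

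Across 13654 tested genes, 12 fell in Smo (-) PH (0.0879% of those tested) and 5 rose (0.0366%) at an adjusted p under 0.05 (edgeR quasi-likelihood test). The genes that fell were Igfbp1, Idi1, Zbtb16, Hspb1, Gm31583, Atxn1, Lpin1, Cyp7a1, Cyp51, Nsdhl, Lpin2 and Trp53inp1. The genes that rose were Gm3776, Gstm3, Lpl, Stom and Rcan1. Gm31583 and Gm3776 fall outside the rule for named genes and were named after their values were seen. At an unadjusted p under 0.05 there were 796 genes. With 1 control mouse the test borrows its spread from the Smo (-) pairs at both times and takes the spread of the lone library to be like theirs. An exact permutation of 2 libraries against 1 cannot give a p under 0.333. Igfbp1, Idi1 and Hspb1 were called in all 13 alternative fits that keep the groups apart, while upper-quartile scaling left 0 higher and 3 lower genes, DESeq2 gave 17 and 34, and the fit with 1 effect of the virus for both times gave 0 and 0. As a description that needs no spread, 204 genes (1.49%) were at least 2-fold higher and 119 (0.872%) at least 2-fold lower in both Smo (-) PH mice than in the control. Both mice lay above the control for 4837 genes (35.4%) and below it for 5078 (37.2%), and these shares are the background for the lists of genes below.

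**Figure D1:**
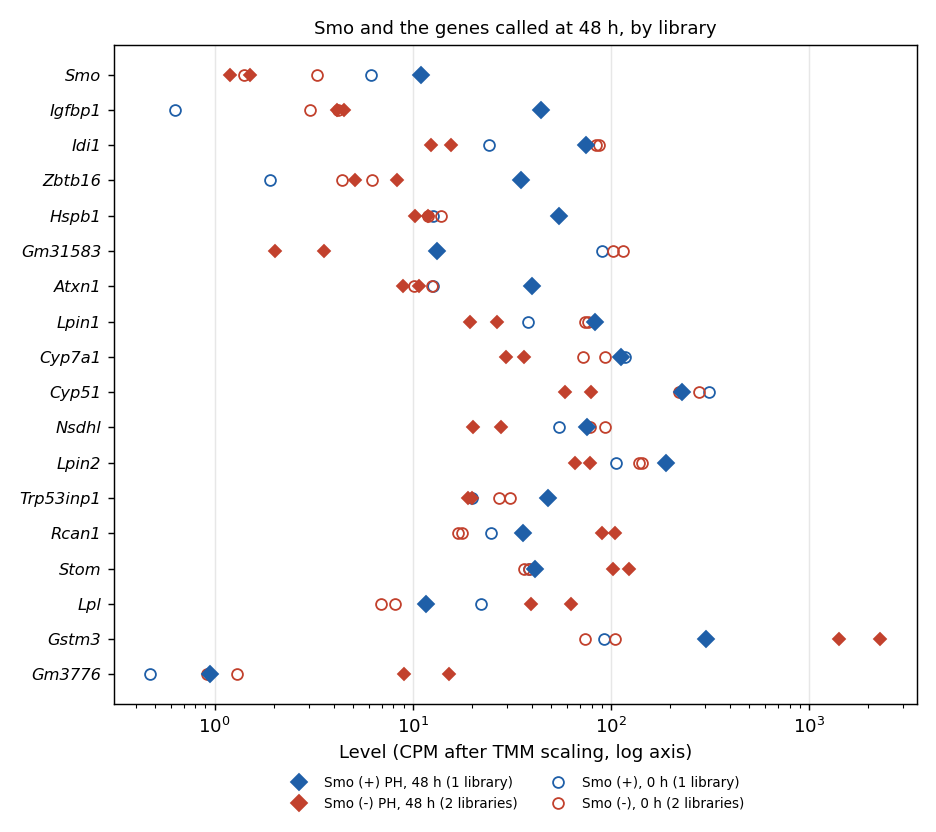
Levels of Smo and of the 17 called genes (horizontal axis, CPM on a log scale) in each of the 6 libraries of Smo-floxed mice, filled diamonds at 48 h and open circles at 0 h, blue for Smo (+) and red for Smo (-). For Igfbp1, Zbtb16, Hspb1 and Atxn1 the Smo (+) PH library stands above the other 5 libraries, while for Idi1, Cyp51 and Nsdhl the Smo (-) PH libraries stand below the other 4.

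**Figure D2:**
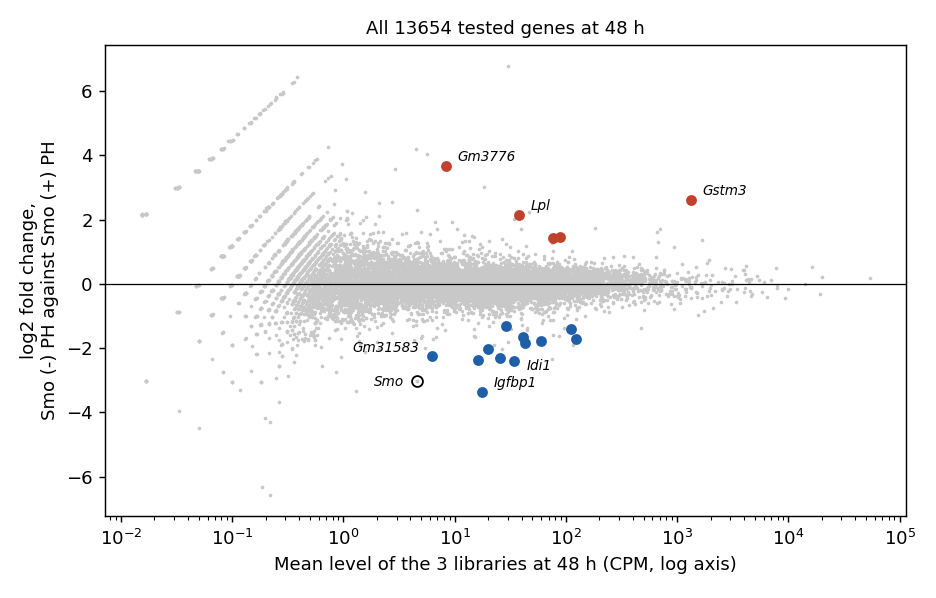
The log2 fold change of Smo (-) PH against Smo (+) PH (vertical axis) for each of 13654 tested genes by its mean CPM over the 3 libraries at 48 h (horizontal axis, log scale), with called genes in red (5 higher) and blue (12 lower), Smo as a black ring, and some of them named. Most genes lie near 0, with a median of −0.00276.

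Cholesterol synthesis stood out among the lower genes. Of 28 tested genes of cholesterol synthesis and of SREBP2, the factor that drives it, 26 were lower in both Smo (-) PH mice against 37.2% of all tested genes, 3 were called lower, 0 called higher, and 8 were at least 2-fold lower in both. The list's median log2 fold change was −0.78, with −0.69 in replicate 1 and −0.83 in replicate 2, against −0.00276 over all genes. Its summed level was 5610 CPM in the control and 3840 and 4060 CPM in the deleted mice.

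Idi1, which makes the isoprenoid building block, stood at 74.6 CPM in the Smo (+) PH library and at 15.7 and 12.4 CPM in the Smo (-) PH libraries. It fell by 2.41 on the log2 scale (SE 0.194, adjusted p = 0.00251, edgeR), and at 0 h it stood at 24.4 CPM in the Smo (+) library and at 87.0 and 84.2 CPM in the Smo (-) libraries, the opposite order. Cyp51, the lanosterol demethylase, stood at 230 CPM in the control and at 79.7 and 58.9 CPM after deletion (−1.73, SE 0.237, adjusted p = 0.0424). Nsdhl, which acts in the same later steps, went from 76.2 CPM to 27.8 and 20.3 CPM (−1.67, SE 0.222, adjusted p = 0.0424). For each of these enzymes the deleted mice lay below the control, as for 37.2% of all tested genes, and below all 3 mice at 0 h. Hmgcs1, at the entry of the pathway, stood at 165, 71.7 and 54.3 CPM and just missed the threshold (−1.39, SE 0.216, adjusted p = 0.0635). Ebp, a sterol isomerase picked out after its values were seen, was slightly higher in both deleted mice (190, 223 and 207 CPM).

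**Figure D3:**
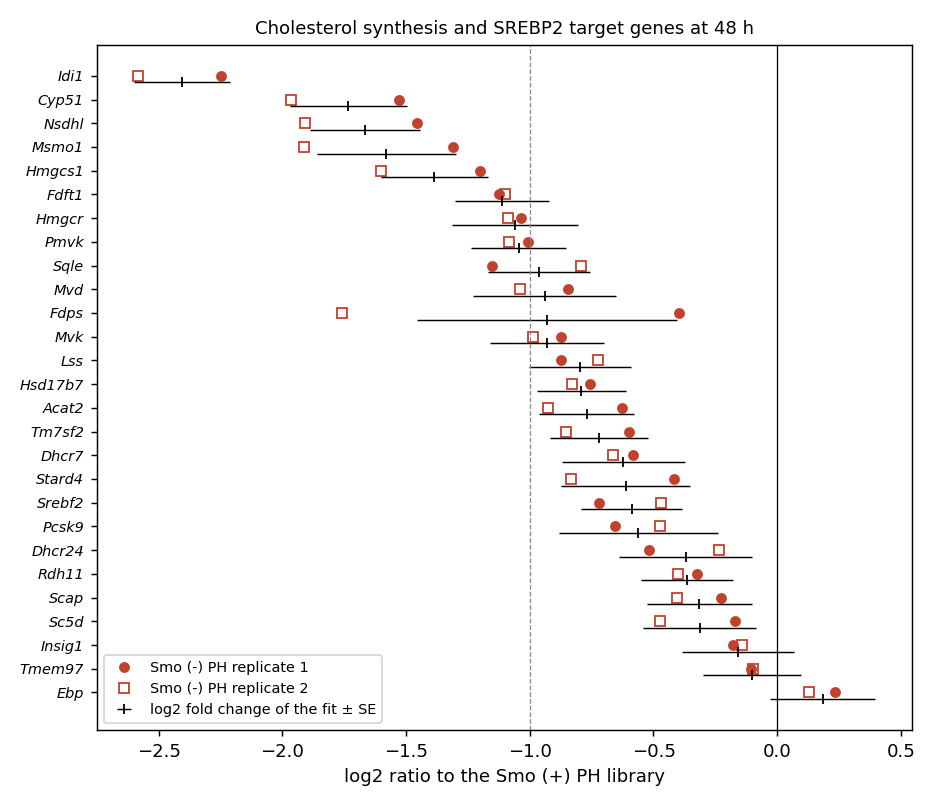
The log2 ratio of each Smo (-) PH library to the Smo (+) PH library (horizontal axis) for 27 of the 28 tested genes of cholesterol synthesis and SREBP2 targets, with the fitted log2 fold change and its SE as a black bar and 2-fold lower as a dashed line. Of the genes shown, all but Ebp lie below 0 in both mice, with Idi1 the lowest in the fit (−2.41).

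The promoters of this group are shown because its members were lower together. Sequences are from RefSeq (GRCm38.p6), cover the 250 bases before the transcription start nearest to the annotated gene start, and read 5′ to 3′ on the strand of the gene: chr13:8885356-8885605 (+ strand) for Idi1, chr5:4104698-4104947 (- strand) for Cyp51, chrX:72918271-72918520 (+ strand) for Nsdhl and chr13:119690101-119690350 (+ strand) for Hmgcs1. Capitals mark CCAAT on either strand (ATTGG on the one shown), the box bound by NF-Y, and in Hmgcs1 also TCACNCCAC, a form of the sterol regulatory element that SREBP factors bind.
Idi1: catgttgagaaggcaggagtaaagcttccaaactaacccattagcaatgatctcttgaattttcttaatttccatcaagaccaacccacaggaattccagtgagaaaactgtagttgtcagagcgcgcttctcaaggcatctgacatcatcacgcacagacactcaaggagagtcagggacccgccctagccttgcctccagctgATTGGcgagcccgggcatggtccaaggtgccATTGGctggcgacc
Cyp51: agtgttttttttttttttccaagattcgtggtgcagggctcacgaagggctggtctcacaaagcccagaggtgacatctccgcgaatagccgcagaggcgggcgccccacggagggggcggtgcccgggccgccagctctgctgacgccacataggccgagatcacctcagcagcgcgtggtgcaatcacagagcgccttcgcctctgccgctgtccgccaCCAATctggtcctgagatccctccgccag
Nsdhl: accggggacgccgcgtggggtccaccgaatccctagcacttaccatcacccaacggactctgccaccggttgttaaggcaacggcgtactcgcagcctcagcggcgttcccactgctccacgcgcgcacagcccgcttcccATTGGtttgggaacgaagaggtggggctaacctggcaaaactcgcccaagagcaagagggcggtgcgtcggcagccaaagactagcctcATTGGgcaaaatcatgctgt
Hmgcs1: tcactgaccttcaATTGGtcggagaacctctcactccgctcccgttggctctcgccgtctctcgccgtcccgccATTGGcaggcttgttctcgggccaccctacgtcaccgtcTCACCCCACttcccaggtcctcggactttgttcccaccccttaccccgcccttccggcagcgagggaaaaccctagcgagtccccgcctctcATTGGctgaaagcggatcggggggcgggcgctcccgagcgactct
RefSeq promoters matched 20 of the 28 genes, and 16 of these 20 held CCAAT, against 35.5% of 19472 promoters of the same length. Of the 6 matched genes that were at least 2-fold lower in both mice, 6 held it. TCACNCCAC, searched on both strands, was in 1 of the 20, Hmgcs1, and in 1.07% of all promoters. A match is a run of letters and does not show that a factor binds there.

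Bile acid synthesis is the main way out for cholesterol, and 1 of its genes fell. Cyp7a1, the rate-limiting enzyme of bile acid synthesis, stood at 113 CPM in the Smo (+) PH library and at 36.4 and 29.5 CPM in the Smo (-) PH libraries. It fell by 1.78 on the log2 scale (SE 0.217, adjusted p = 0.0306, edgeR), and the deleted mice lay below every other Smo-floxed library. Cyp8b1, which sets the share of cholic acid, stood at 161, 47.0 and 16.4 CPM without passing the test (−2.35, SE 0.469, adjusted p = 0.185), and Cyp27a1 of the alternative route at 348, 224 and 154 CPM (adjusted p = 0.609). Of 28 tested genes of bile acid synthesis and transport, 17 were lower in both deleted mice against 37.2% of all tested genes. Higher in both were 7, against 35.4%, and 1 was called, with a median of −0.16.

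Of 28 tested fatty acid and triglyceride genes, 12 were lower in both deleted mice and 9 higher in both, with 2 called, both lipins. Lpin1, a phosphatidate phosphatase of triglyceride synthesis that also acts with PPAR factors, stood at 83.0, 19.5 and 26.6 CPM (−1.85, SE 0.209, adjusted p = 0.0196), and its relative Lpin2 at 189, 78.2 and 66.0 CPM (−1.39, SE 0.189, adjusted p = 0.0424, edgeR). Both deleted mice lay well below the control for each lipin. Scd1, which desaturates fatty acids, stood at 275, 799 and 891 CPM on the higher side without a call (1.62, SE 0.362, adjusted p = 0.254). Lpl, the lipoprotein lipase that adult hepatocytes normally keep low, rose: 11.7 CPM in the control and 39.5 and 63.3 CPM after deletion (2.14, SE 0.306, adjusted p = 0.0442). At 0 h Lpl lay in the opposite order, at 22.1 CPM in the Smo (+) library and 6.96 and 8.11 CPM in the Smo (-) libraries, and with 1 effect of the virus for both times its log2 fold change was −0.05. Of 16 tested lipid droplet genes, 9 were higher in both deleted mice and 3 lower in both (median 0.31, 0 called).

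Igfbp1 shared the smallest adjusted p with Idi1. It encodes a binding protein for insulin-like growth factors that insulin switches off and fasting, stress and injury switch on. Igfbp1 stood at 44.6 CPM in the Smo (+) PH library and at 4.48 and 4.15 CPM in the Smo (-) PH libraries (−3.37, SE 0.255, adjusted p = 0.00251, edgeR). At 0 h the level was 0.632 CPM without deletion and 4.19 and 3.05 CPM with it. Among the Smo-floxed libraries 1, the Smo (+) PH library, was thus high and the other 5 were low. In young wild-type mice Igfbp1 fell 48 h after PH (log2 fold change −2.18, adjusted p = 0.0071, edgeR fit of the other table). Its level there was 245 to 362 CPM before PH and 23.4 to 119 CPM at 48 h. The Igfbp1 promoter (chr11:7197537-7197786, + strand, RefSeq, GRCm38.p6) is shown for CAAAACA, in capitals, the core of the insulin response element that FOXO factors bind.
Igfbp1: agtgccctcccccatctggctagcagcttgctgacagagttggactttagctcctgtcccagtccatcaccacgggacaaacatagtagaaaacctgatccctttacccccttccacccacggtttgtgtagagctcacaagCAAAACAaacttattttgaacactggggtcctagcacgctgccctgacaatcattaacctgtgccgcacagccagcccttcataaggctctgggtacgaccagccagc
CAAAACA, on either strand, was in 5.02% of 19472 promoters and in 3 of 24 matched genes of the insulin and IGF list.

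Irs2, G6pc and Foxo1, genes under insulin control that were named for a low p in their lists, lay on the same side as Igfbp1 without passing the test. Irs2, which links the insulin receptor to its kinases, stood at 44.0, 10.7 and 12.9 CPM (−1.90, SE 0.379, adjusted p = 0.185). G6pc, the last enzyme of glucose output, stood at 226, 52.8 and 68.2 CPM (−1.90, SE 0.387, adjusted p = 0.197), and the transcription factor Foxo1 at 38.8, 21.1 and 20.5 CPM (−0.90, SE 0.179, adjusted p = 0.185, edgeR). Both deleted mice lay below the control for each of these, as they did for 37.2% of all tested genes. Of 28 tested genes of the insulin and IGF axis, 18 were lower in both deleted mice, 5 higher in both, 1 called and 3 at least 2-fold lower, with a median of −0.26.

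Hspb1, Zbtb16 and Atxn1 shared the pattern of Igfbp1, high in the Smo (+) PH library alone among the Smo-floxed libraries. The small heat shock protein Hspb1 stood at 54.5 CPM there, at 10.3 and 11.9 CPM in the Smo (-) PH libraries and at 12.0 to 13.9 CPM at 0 h (−2.30, SE 0.207, adjusted p = 0.00449). Zbtb16, a transcriptional repressor that glucocorticoids induce in many cells, stood at 35.3, 5.13 and 8.34 CPM (−2.38, SE 0.311, adjusted p = 0.0399), and Atxn1, a chromatin-bound repressor, at 40.1, 8.91 and 10.8 CPM (−2.02, SE 0.227, adjusted p = 0.0196, edgeR). In wild-type Young PH mice, scaled in their own fit, Zbtb16 stood at 49.4 to 81.65 CPM and Atxn1 at 61.6 to 77.7 CPM. Both lay above the Smo (+) PH library, whereas Hspb1 lay below it at 2.21 to 14.9 CPM. Old PH mice, in the same fit, gave 3.525 to 14.96 CPM for Zbtb16 and 13.27 to 18.12 CPM for Atxn1. Hspb1 stood at 6.021 to 29.18 CPM in Old PH, so that each gene lay below the Smo (+) PH library there. Read pairs outside genes were 25.2% to 28.9% in Young PH and 3.11% to 3.74% in Old PH. In the Smo-floxed mice at 48 h they were 4.2% to 4.63%, and the part of that in these levels was not tested. Of the 12 genes that fell, the Smo (+) PH library stood above the 5 other Smo-floxed libraries for 7, and both Smo (-) PH libraries stood below the 4 others for 8. The share of all tested genes with either pattern was not counted. What the lone control mouse adds to these genes was not tested, since 1 Smo (+) PH mouse was analysed.

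Of 26 tested heat shock chaperones, Hspb1 included, 15 were lower in both deleted mice and 6 higher in both, with a median of −0.07 and Hspb1 as the 1 call. Bag3, a co-chaperone of the same response, was among the 6 and stood at 52.4, 79.8 and 83.7 CPM (0.64, SE 0.191). Of 31 tested CDK inhibitors and p53 targets, 18 were lower in both deleted mice and 10 higher in both, with a median of −0.12 and Trp53inp1 as the 1 call. Trp53inp1, a p53 target that promotes cell death and autophagy, fell from 48.2 CPM to 19.1 and 20.0 CPM (−1.30, SE 0.183, adjusted p = 0.0436, edgeR). Bbc3, another p53 target that triggers apoptosis, stood at 24.7, 12.5 and 13.5 CPM (−0.92, SE 0.186, adjusted p = 0.186). The last of the genes that fell, Gm31583, is a long intergenic noncoding RNA on chromosome 16 that stood at 13.2, 3.57 and 2.03 CPM (−2.24, SE 0.281, adjusted p = 0.033) and at 90.5 to 115 CPM at 0 h. It also fell 48 h after PH in young wild-type mice (−4.05).

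Immediate early genes, the first wave of transcription after a growth stimulus, lay mostly on the lower side. Of 26 tested, 16 were below the control in both deleted mice against 37.2% of all tested genes, 4 above in both and 0 called (median −0.44). Their summed level was 875, 583 and 479 CPM. At 0 h the order was the opposite, with 542 CPM in the Smo (+) library and 1190 and 1150 CPM in the Smo (-) libraries. Fos, a subunit of AP-1, stood at 57.8 CPM in the control and at 17.7 and 15.4 CPM after deletion (−1.80, SE 0.302, adjusted p = 0.0993, edgeR). Before PH, at 0 h, Fos stood at 2.37 CPM in the Smo (+) library and at 36.2 and 19.4 CPM in the Smo (-) libraries. Junb, the partner of Fos, stood at 110, 58.8 and 62.4 CPM at 48 h (−0.86, SE 0.183), and the phosphatase Dusp1 at 47.4, 21.4 and 26.2 CPM (−0.99, SE 0.191). Among growth factor receptors, Egfr stood at 1291, 738 and 765 CPM (−0.78, SE 0.28) and Erbb3 at 141, 70.3 and 95.6 CPM (−0.76, SE 0.221), neither called. Of 25 tested genes of EGF and HGF signaling, 11 were lower in both deleted mice and 8 higher in both (median −0.1), beside 37.2% and 35.4% of all tested genes. The transcription factors of the hepatocyte gave 19 of 32 tested genes lower in both deleted mice and 4 higher in both, with a median of −0.22 and 0 called. Among them Cebpb, which acts after PH, stood at 176, 82.7 and 117 CPM.

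Glutathione S-transferases led the genes that were higher. These enzymes join glutathione to reactive compounds, and several are targets of NRF2, the factor of the oxidative stress response. Gstm3 stood at 303 CPM in the Smo (+) PH library and at 1421 and 2287 CPM in the Smo (-) PH libraries, and it rose by 2.61 on the log2 scale (SE 0.378, adjusted p = 0.0446, edgeR). At 0 h it stood at 74.0 to 106 CPM in all 3 mice, and in young wild-type mice it rose after PH (1.88). Gm3776, a protein-coding gene beside Gsta1 on chromosome 9, went from 0.95 CPM to 9.01 and 15.2 CPM (3.66, SE 0.506, adjusted p = 0.0424). Gstm2 just missed the threshold at 71.9, 200 and 276 CPM (1.73, SE 0.257, adjusted p = 0.0523).

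Further members of the family lay on the same side without a call. Gstm1 stood at 810, 1867 and 2310 CPM (1.37, SE 0.325, adjusted p = 0.309), Gsta2 at 11.2, 43.3 and 47.9 CPM (2.02, SE 0.395, adjusted p = 0.173) and Gsta1 at 0.50, 4.63 and 11.8 CPM (4.03, SE 0.84, adjusted p = 0.226, edgeR). In each both deleted mice lay above the control, as they did for 35.4% of all tested genes. These genes are close copies that lie in clusters on chromosomes 3 and 9, so that reads shared between copies may be dropped or split among them. Of 42 tested genes of phase II conjugation, 30 were higher in both deleted mice against 35.4% of all tested genes, 8 lower in both, 1 called and 5 at least 2-fold higher, with a median of 0.24. Of 30 tested NRF2 targets, which share the transferases with that list, 18 were higher in both, 7 lower in both and 1 called (median 0.32). Cytochrome P450 genes, the phase I partners, gave 14 higher in both and 15 lower in both of 37. Cyp2a5 stood at 278, 835 and 988 CPM (1.72, SE 0.334, adjusted p = 0.173). Cyp2a4 stood at 0.4, 75.5 and 13.9 CPM, so that the deleted mice differed more from each other than Cyp2a5 did.

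Rcan1, a feedback inhibitor of the phosphatase calcineurin, rose from 36.3 CPM to 105 and 90.0 CPM (1.43, SE 0.202, adjusted p = 0.0436). Stom, a membrane protein that binds ion channels, rose from 41.6 CPM to 103 and 123 CPM (1.44, SE 0.208, adjusted p = 0.0442, edgeR). For all 5 genes that rose, both Smo (-) PH mice stood above the 4 other Smo-floxed libraries, and 3 of them also rose 48 h after PH in young wild-type mice. A place above the control is part of being called higher, and the shares of all tested genes with these patterns were not counted. Tnfrsf12a, the receptor of the cytokine TWEAK, stood at 15.8, 56.2 and 47.4 CPM and just missed the threshold (1.72, SE 0.266, adjusted p = 0.0635).

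Genes of the list of cholangiocyte and progenitor markers were also on the higher side, led by keratins and an annexin, of which Krt8 and Krt18 are the keratins of hepatocytes too. Krt8 stood at 515, 886 and 1417 CPM (1.16, SE 0.308), Krt18 at 343, 683 and 1005 CPM (1.30, SE 0.278) and Anxa2 at 13.5, 29.3 and 96.8 CPM (2.22, SE 0.619), none of them called. Prom1, a surface marker of progenitors, stood at 0.35, 2.87 and 10.2 CPM (4.20, SE 0.94, adjusted p = 0.254, edgeR), so that it too was higher in both deleted mice and differed between them. Of 21 tested, 13 were higher in both deleted mice against 35.4% of all tested genes, and 2 lower in both against 37.2%. In both mice 3 were at least 2-fold higher and 1 at least 2-fold lower (median 0.72, range −3.06 to 5.63). The summed level was 975 CPM in the control and 1740 and 2700 CPM after deletion, most of it from Krt8 and Krt18 in each library. The bile duct markers Epcam, Krt7 and Krt19, chosen outside the rule for named genes, were low in all 3 libraries: Epcam was at 0, 0.352 and 0.322 CPM, Krt7 at 0.20, 0.503 and 0.184 CPM and Krt19 at 0.50, 1.16 and 0.507 CPM. The part of such cells in this list was not tested.

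The standard proliferation markers had the control between the Smo (-) PH mice. Mki67, the standard marker of cycling cells, stood at 93.9 CPM in the control and at 115 and 84.3 CPM after deletion (0.09, SE 0.236). Foxm1, the factor that drives mitotic genes, stood at 19.5, 21.8 and 16.9 CPM (−0.01, SE 0.261), and the cyclin Ccnd1 at 184, 156 and 193 CPM (−0.07, SE 0.31). None of the 3 was called, and each was far above its level at 0 h, where Mki67 stood at 0.453 to 2.45 CPM. A miss here does not show equal levels, since with 3 mice much larger changes also missed the threshold, such as Smo (−3.02) and Irs2 (−1.90).

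**Figure D4:**
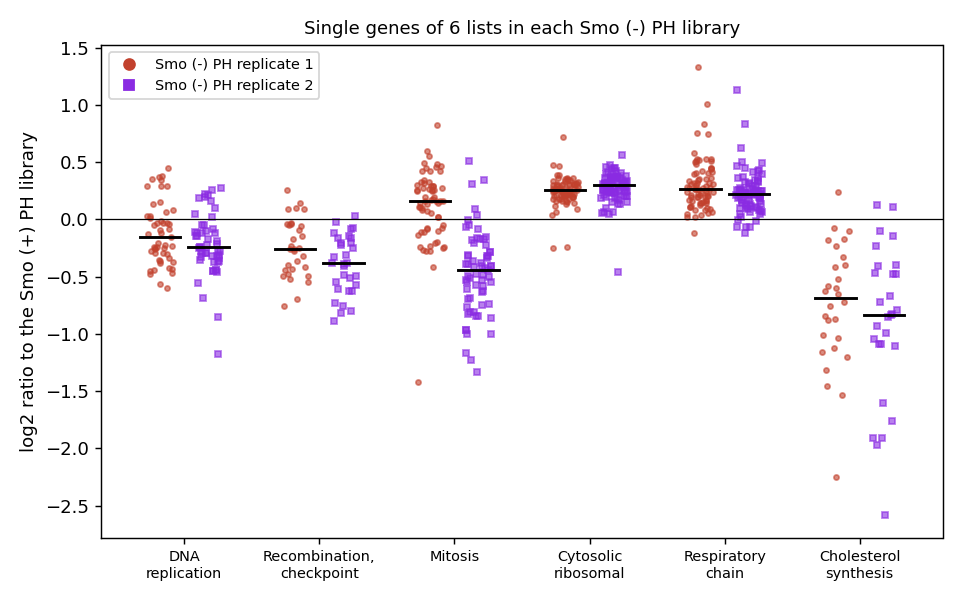
The log2 ratio to the Smo (+) PH library (vertical axis) of each tested gene of 6 lists, circles for Smo (-) PH replicate 1 and squares for replicate 2, with the median as a black line. The mitosis genes lie above 0 in replicate 1 (median 0.16) and below it in replicate 2 (−0.44), while the medians of the other 5 lists lie on the same side in both mice.

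Of 65 tested genes of mitosis, 41 had the control between the deleted mice, with a median ratio of 0.16 in replicate 1 and −0.44 in replicate 2, and 0 were called. Genes of DNA replication and of recombination and the checkpoint lay mostly on the lower side in both mice, against 37.2% of all tested genes. Of 51 tested genes of DNA replication, 35 were lower in both and 9 higher in both (median −0.20), and of 31 genes of homologous recombination and the checkpoint, 26 were lower in both and 1 higher in both (median −0.33), with 0 called in either list. The polymerase Pole stood at 27.5, 18.2 and 15.2 CPM (−0.72, SE 0.229), the helicase subunit Mcm2 at 81.1, 62.1 and 59.7 CPM (−0.41, SE 0.174) and Wee1, the kinase that holds cells before mitosis, at 52.8, 31.2 and 29.9 CPM (−0.79, SE 0.207). Ccne1, the cyclin of S phase entry, lay on the other side at 14.0, 19.9 and 20.4 CPM (0.53, SE 0.242). Of 31 G1 and G1/S regulators, 15 were lower in both and 7 higher in both (median −0.06), beside 37.2% and 35.4% of all tested genes.

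Genes of the ribosome and of the respiratory chain lay on the higher side by small amounts. Of 82 tested cytosolic ribosomal proteins, 80 were higher in both Smo (-) PH mice against 35.4% of all tested genes, with a median of 0.27 and none at least 2-fold higher or called. At an unadjusted level Rpl37 had the smallest p of the list, with 86.9, 121 and 120 CPM (0.47, SE 0.185). Of 78 nuclear genes of the respiratory chain, 72 were higher in both (median 0.24), among them Cox7a2 at 78.9, 118 and 109 CPM (0.53, SE 0.192) and Ndufc2 at 36.6, 52.9 and 51.5 CPM (0.51, SE 0.183). Of 77 mitochondrial ribosomal proteins, 58 were higher in both (median 0.16), and 0 genes of these lists were called. Transcripts of the mitochondrial genome took 3.32%, 5.57% and 3.73% of gene counts, and their part in these shifts was not tested.

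**Figure D5:**
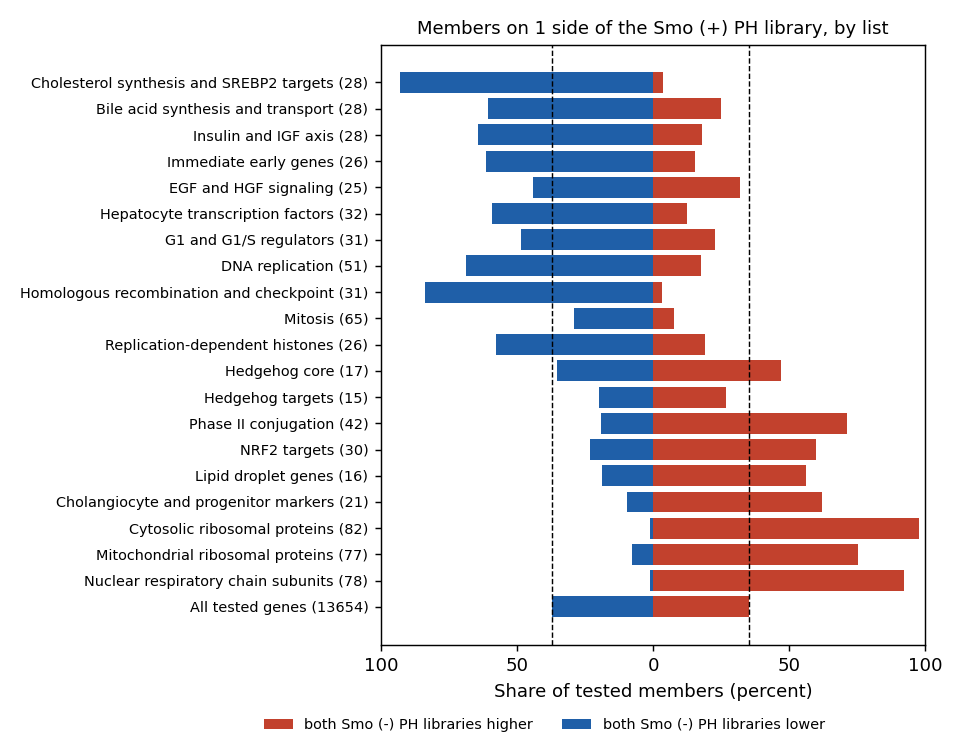
Share of the tested members (horizontal axis, percent, number tested in brackets) that were higher (red, to the right) or lower (blue, to the left) in both Smo (-) PH mice than in the Smo (+) PH mouse, for 20 lists and all tested genes, whose shares of 35.4% and 37.2% are drawn as dashed lines. Cholesterol genes and recombination genes reach furthest to the left, and cytosolic ribosomal proteins and respiratory chain subunits furthest to the right.

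Markers of the other cells of the liver differed in direction, with no gene called. The counts below stand beside 35.4% of all tested genes higher in both deleted mice and 37.2% lower in both. Of 27 tested stellate cell and matrix markers, 21 were lower in both deleted mice and 3 higher in both (median −0.23), with summed levels of 4540, 3770 and 4430 CPM. Sinusoidal endothelial markers summed to 1080, 1040 and 893 CPM (25 tested, 12 lower in both, median −0.09) and Kupffer cell and macrophage markers to 671, 573 and 604 CPM (24 tested, 10 lower in both, median −0.07), with 0 called in all 3 lists. T and NK cell markers summed to 9.2, 8.5 and 10.9 CPM (5 tested, 3 lower in both). Neutrophil and granulocyte markers gave 6 of 8 higher in both deleted mice and 0 lower in both (median 0.94), with sums of 23.7, 24.3 and 43.6 CPM, and B and plasma cell markers 7 of 11 higher in both and 1 lower in both (median 0.16), with sums of 33.6, 28.3 and 43.3 CPM. The summed level of both was highest in Smo (-) PH replicate 2, and the part of these cells in the results was not tested. Zonation of the liver lobule is given by counts alone: of 27 periportal genes 18 had the control between the deleted mice, and of 27 pericentral genes, which include Gstm3 and Cyp7a1, 17 were lower in both and 8 higher in both. Secreted plasma proteins summed to 196000, 212000 and 186000 CPM (48 tested, median −0.11). The urea cycle gave 4 of 10 genes lower in both and 2 higher in both.

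The response to PH itself was drawn from mice that this comparison does not use. In the 12 wild-type libraries, 1140 genes tested here rose at least 2-fold and 838 fell at least 2-fold in young mice 48 h after PH (edgeR, adjusted p under 0.05). Of the 1140 induced genes, 409 were higher in both Smo (-) PH mice, 398 lower in both, 3 called higher and 1 called lower, with a median of 0.02, and 41 were at least 2-fold higher and 10 at least 2-fold lower in both. Of the 838 repressed genes, 182 were higher in both, 415 lower in both, 0 called higher and 3 called lower, with a median of −0.16, and 11 were at least 2-fold higher and 30 at least 2-fold lower in both. Of all tested genes 35.4% were higher in both and 37.2% lower in both, and the shares past 2-fold in both were 1.49% higher and 0.872% lower. With the log2 fold change set past 2 in place of 1, the medians were −0.04 for 535 induced and −0.23 for 148 repressed genes.

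Old regenerating hepatocytes can be set beside these, since no library is shared. Of 2099 genes at least 2-fold higher in Old PH than in Young PH mice (edgeR, adjusted p under 0.05), 1165 were higher in both Smo (-) PH mice, 405 lower in both, 3 called higher and 2 called lower, with a median of 0.13. Of 2230 genes at least 2-fold lower in Old PH, 1092 were lower in both, 531 higher in both, 0 called higher and 4 called lower, with a median of −0.12. Over all tested genes, 35.4% were higher in both and 37.2% lower in both, with 0.0366% called higher and 0.0879% called lower. The wild-type libraries differ by age in read pairs outside genes, from 25.2% to 28.9% in Young PH to 3.11% to 3.74% in Old PH, and the part of that in the lists was not tested. At 48 h these shares were 4.2%, 4.63% and 4.26% in the Smo-floxed mice. Single genes differed in direction: Gstm3 was higher in Old PH than in Young PH (1.29) and in Smo (-) PH (2.61), and Cyp7a1 lower in both (−1.29 and −1.78), whereas Idi1 was higher in Old PH (1.15) and lower in Smo (-) PH (−2.41).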

How the data were processed

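Hepatocyte RNA of 18 mice was sequenced, 6 of them Smo-floxed and 12 wild-type. Per the methods and the submitters' processing notes, the authors trimmed reads with Trim Galore, aligned them to mm10 with STAR (2.5.0c), handled files with SAMtools, took out duplicates (Picard) and used HTSeq to count read pairs for each Ensembl gene. The strand setting and the annotation release are not given in the sources used here. The deposited values are raw counts, 1 column per mouse, and 0 columns were left unused. Gene names printed in the table of the Smo-floxed mice matched the GENCODE M21 name of the same ID for 1.53% of genes, against 96.7% in the wild-type table, so names were taken by ID from the wild-type table (30322 of 31053 genes) or from GENCODE M21 (679 genes).

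The 6 Smo-floxed libraries (16835686 to 19151731 read pairs in genes) were fitted together with 4 groups by edgeR's quasi-likelihood test (edgeR 4.0.16, R 4.3.3), with TMM scaling and filterByExpr (minimum count 10, minimum total 15), which kept 13654 genes and left 2 residual degrees of freedom. Calls are at a Benjamini-Hochberg adjusted p under 0.05, over all tested genes. The biological coefficient of variation was 0.168. The wild-type table was fitted separately (14554 genes, 8 residual degrees of freedom). Levels carry a prior count of 2 only in the 2-fold rule and in the standard deviations between libraries. Each library is 1 mouse. Alternatives were RLE and upper-quartile factors, DESeq2 1.42.0, limma-voom (limma 3.58.1), other filters, other sets of libraries and an additive model.

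The members and the 70 lists were chosen with earlier results of these data known. Named genes are Smo and the genes the study names for these mice or for Hedgehog signaling, the 12 genes with the largest changes each way among those with a mean of at least 5 CPM (called genes first, provisional names such as Gm followed by digits left out), and, from each list, the members with the lowest p, at most 4. Ebp and the cell type markers Alb, Hnf4a, Epcam, Krt7 and Krt19 are named outside this rule. The values of 1 gene are not reported here.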

Additional observations from a re-analysis of the deposited data

Results flagged for a closer look

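The effect of Smo deletion differed between 48 h and 0 h for 32 of the genes named in the report, by the interaction term of the edgeR fit (adjusted p from 0.00162 to 0.042). The values are the log2 fold change of Smo (-) against Smo (+) at 48 h minus the same at 0 h. It was lower at 48 h for Igfbp1 (−5.88), Idi1 (−4.22), Hspb1 (−2.32), Zbtb16 (−3.86), Atxn1 (−1.86), Lpin1 (−2.82), Lpin2 (−1.79), Cyp7a1 (−1.27), Cyp51 (−1.40), Nsdhl (−2.32), Trp53inp1 (−1.85), Gm31583 (−2.51), Hmgcs1 (−2.41), Irs2 (−3.46), G6pc (−3.99), Fos (−5.35), Junb (−2.60), Dusp1 (−1.22), Pole (−1.57), Wee1 (−2.37), Bbc3 (−1.25). It was higher at 48 h for Bcl2 (2.96), Mki67 (2.06), Rcan1 (1.95), Lpl (3.70), Stom (1.47), Gstm3 (2.65), Gstm2 (1.74), Tnfrsf12a (2.06), Cyp2a5 (2.19), Cyp2a4 (8.75), Anxa2 (4.52). Over all tested genes 628 were called higher and 838 lower in this way. The value at 0 h rests on 1 Smo (+) library, which stands apart with 22.5% of its gene counts from the mitochondrial genome and a Malat1 level of 3550 CPM, against 123 to 172 at 48 h. Its part in these differences was not tested. For Mki67, for example, that library stood at 2.45 CPM and the Smo (-) libraries at 0 h at 0.453 and 0.792 CPM, while the log2 fold change at 48 h was 0.09. Most named genes were chosen for a large change or a low p at 48 h, and that change enters the difference between the times. The 32 are therefore not an independent result about these genes, and the counts over all genes are out of 13654.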

How the results depend on the processing

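The number of genes called at 48 h (5 higher and 12 lower) moved with the setting: 0 and 3 with upper-quartile factors, 17 and 34 with DESeq2, 61 and 118 with no low-count filter, 0 and 5 with a filter of CPM above 1 in 2 libraries, 3 higher with the 3 libraries at 48 h alone, and 0 and 0 with virus and time as additive terms. Leaving out 1 library gave 6 to 37 higher and 12 to 67 lower genes, the most without Smo (-) PH replicate 1. Of the 17 called genes, 17 stayed called with RLE factors, DESeq2 and no filter, 16 with limma-voom, 14 without Smo (-) replicate 2, 11 with the libraries at 48 h alone, 5 with the stricter filter, 3 with upper-quartile factors and 0 with the additive terms, under which Lpl turned sign (−0.05, adjusted p = 0.983, edgeR). The cause was not tested.

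Smo passed the threshold with RLE factors (−3.01, adjusted p = 0.0424), DESeq2 (−3.02, adjusted p = 0.00109), limma-voom (−3.02, adjusted p = 0.0436), no low-count filter (−3.02), the libraries at 48 h alone (−3.01, edgeR) and without genes of the mitochondrial genome (−3.02), and ranged from −3.19 to −2.86 when 1 library was left out. It missed the threshold with upper-quartile factors (−2.99, adjusted p = 0.165, edgeR), the stricter filter (−3.02, adjusted p = 0.117), without Smo (+) replicate 1 (−3.01, adjusted p = 0.0563) and with the additive terms (−2.27, adjusted p = 0.568). The difference between the times (628 higher, 838 lower) became 389 and 276 with upper-quartile factors, 1354 and 1637 with no filter, and 681 to 1766 and 586 to 1985 without 1 library. The 2-fold rule (204 and 119 genes) gave 98 and 79 with a prior count of 5. Chosen after seeing the data, the rule on 1 Smo (-) PH library gave 365 to 489 and 313 to 370 genes.

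The sign turned, with no call on either side, between the fits without 1 or the other Smo (-) PH library for Ihh (−0.38 to 0.21), Ccnd1 (−0.24 to 0.08), Mki67 (−0.15 to 0.29) and Foxm1 (−0.20 to 0.16), and for Foxm1 also with upper-quartile factors (0.03), the libraries at 48 h alone (0.0021) and without Smo (+) replicate 1 (0.0015). The list medians, also run after seeing the data, turned for mitosis (−0.44 to 0.16 without 1 Smo (-) PH library) and histones (0.09 with no filter). No paired analysis was possible because the Smo (+) PH group has 1 library, so that the groups share fewer than 2 replicate numbers. With 1 control mouse, its own deviation and the effect of deletion cannot be told apart.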

Other observations

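Further lists were on the lower side in the Smo (-) PH mice by small amounts, with 0 genes called in any of them. Of all tested genes, 37.2% were lower in both and 35.4% higher in both. Of 35 tested Wnt signaling genes, 22 were lower in both deleted mice and 5 higher in both (median −0.19), and of 40 chromatin modifiers, 28 were lower in both and 6 higher in both (median −0.16). Circadian clock genes gave 15 of 23 lower in both and 4 higher in both (median −0.22), and replication-dependent histones, many of whose transcripts lack a poly(A) tail, 15 of 26 lower in both and 5 higher in both (median −0.35).

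Genes with sex-biased expression in the liver split by direction in their counts, beside 35.4% of all tested genes higher in both and 37.2% lower in both. Of 21 tested female-biased genes, 13 were higher in both deleted mice and 5 lower in both (median 0.90), and of 27 male-biased genes, 14 were lower in both and 3 higher in both (median −0.30). The female-biased genes summed to 321, 416 and 421 CPM, of which Cyp2a4 alone gave 0.4, 75.5 and 13.9 CPM. The summed level of the male-biased genes was 9980 CPM in the control and 10700 and 7430 CPM in the deleted mice, so that the deleted mice lay on both sides of it. Complement genes summed to 36600, 30800 and 28800 CPM (15 of 32 lower in both), and acute phase genes to 49700, 47100 and 37600 CPM (20 of 36 lower in both). Aminoacyl-tRNA synthetases were on the higher side (15 of 23 higher in both, median 0.14).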
